A study of Homo sapiens with 8 samples.

Results

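The genes described here code for the machinery of autophagy and for the lysosome. The list held 37 genes, each represented by the transcript cluster (the summary of all probes of a gene locus) whose annotation carried its symbol, and by the cluster with the highest mean over all arrays where several did. A cluster was found for 36 of the 37 genes, out of 17881 clusters in all, and ATG4B was the gene without one. For 27 genes the cluster carried that symbol alone, and for 9 it carried other symbols too. The choice of cluster used no difference between groups, but the list of genes was chosen with earlier results of these data known.

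The series held 8 Affymetrix exon arrays of cells labelled RS4;11, an acute lymphoblastic leukemia line, with 2 arrays in each of 4 groups. The groups were BTG1 shRNA with prednisolone, BTG1 shRNA with vehicle, control shRNA with prednisolone, and control shRNA with vehicle, and every exposure lasted 8 h. All cells had been transduced with a short hairpin RNA vector, directed at BTG1 (a transcriptional coregulator) or a control, and prednisolone is a synthetic glucocorticoid used against this leukemia. The comparisons asked how the drug changed expression with each hairpin and whether that change differed between them. The sources used here do not give the prednisolone concentration, the hairpin sequences or whether cells were clones or pools. Nothing says that the arrays of a group stem from separate cultures, and the p-values then measure only how these arrays vary, which may be a technical spread.

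The labelled target was lower in the cells labelled BTG1 shRNA, and so was the glucocorticoid receptor. BTG1 (a cluster shared with LINC01619) had log2 levels of 8.14 and 7.80 with BTG1 shRNA and prednisolone, 7.15 and 7.42 with BTG1 shRNA and vehicle, 10.51 and 10.70 with control shRNA and prednisolone, and 9.34 and 9.36 with control shRNA and vehicle. Its log2 difference between the shRNAs was -2.64 under prednisolone and -2.06 under vehicle (limma adjusted p 0.000107 and 0.000388). NR3C1, the glucocorticoid receptor, differed by -3.51 and -2.53 (limma adjusted p 0.000133 and 0.000733). The arrays also differed in cell lineage: the mean log2 level of 9 T-lineage markers was 8.75 to 9.06 over the arrays labelled BTG1 shRNA, against 4.20 to 4.93 over control arrays. That of 8 measured B-lineage markers was 3.85 to 4.20 over the arrays labelled BTG1 shRNA, against 8.28 to 9.01 over control arrays. RS4;11 is known as a B-lineage line, so the arrays labelled BTG1 shRNA went against their cell line label. Of the T-lineage markers 8 of 9 lay above the array median on both arrays of each BTG1 shRNA group, against 2 of 9 in each control group, and of the B-lineage markers 0 of 8, against 7 and 8 of 8. In every comparison between the shRNAs, those of BTG1 and NR3C1 included, the hairpin and this lineage difference cannot be told apart. Fewer cells of a type also cannot be told apart from less RNA per cell. Myeloid markers, 9 measured, were low throughout, with mean log2 levels of 3.65 to 3.996 over the arrays labelled BTG1 shRNA, against 3.72 to 4.44 over control arrays. The 7 stromal and epithelial markers had 5.86 to 6.05 over the arrays labelled BTG1 shRNA, against 5.24 to 6.09 over control arrays. Levels spread least on the first control vehicle array, whose interquartile range was 2.95 log2 units, against 3.39 to 3.80 on the others.

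Autophagy encloses part of the cytoplasm in a membrane, the autophagosome, and delivers it to the lysosome for digestion. The ULK kinase complex starts the process, a phosphatidylinositol 3-kinase complex around BECN1 marks the membrane with the lipid PI3P, and ubiquitin-like conjugation reactions attach ATG8 family proteins such as MAP1LC3B to the growing membrane. Cargo receptors such as SQSTM1 bind both the cargo and ATG8 proteins, cathepsins digest the content, and the transcription factors TFEB and TFE3 switch on many lysosomal genes through promoter elements with the core CACGTG. In lymphoid leukemia cells, glucocorticoids slow growth and cause death, and autophagy has been described as part of that response.

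Promoter sequences are shown for 4 genes, which are ATG12, the gene of the 36 with the largest prednisolone difference in control cells, and MCOLN1, LAMP1 and CTSD, well-known lysosomal targets of TFEB. The sequences are from RefSeq on build GRCh38.p14 and run 5′ to 3′ on the gene's strand, with 250 bases before and 50 bases after the gene's start, and capitals mark each CACGTG.
ATG12: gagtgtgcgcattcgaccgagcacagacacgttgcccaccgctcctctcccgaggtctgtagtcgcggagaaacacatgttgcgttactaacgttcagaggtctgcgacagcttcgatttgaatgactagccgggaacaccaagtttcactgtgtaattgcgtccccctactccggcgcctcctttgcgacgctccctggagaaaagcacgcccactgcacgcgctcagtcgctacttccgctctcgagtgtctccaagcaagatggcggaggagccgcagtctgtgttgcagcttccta
MCOLN1: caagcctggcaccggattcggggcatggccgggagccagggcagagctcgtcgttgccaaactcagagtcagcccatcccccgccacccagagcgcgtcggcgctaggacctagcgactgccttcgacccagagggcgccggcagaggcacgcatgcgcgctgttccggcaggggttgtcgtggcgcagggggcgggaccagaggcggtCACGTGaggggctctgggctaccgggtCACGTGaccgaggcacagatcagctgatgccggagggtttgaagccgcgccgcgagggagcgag
LAMP1: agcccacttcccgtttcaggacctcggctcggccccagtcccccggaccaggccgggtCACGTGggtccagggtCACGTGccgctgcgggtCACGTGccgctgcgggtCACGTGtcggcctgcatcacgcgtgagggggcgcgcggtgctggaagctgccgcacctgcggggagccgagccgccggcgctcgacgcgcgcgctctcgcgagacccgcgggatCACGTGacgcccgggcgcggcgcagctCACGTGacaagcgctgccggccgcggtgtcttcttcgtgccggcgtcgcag
CTSD: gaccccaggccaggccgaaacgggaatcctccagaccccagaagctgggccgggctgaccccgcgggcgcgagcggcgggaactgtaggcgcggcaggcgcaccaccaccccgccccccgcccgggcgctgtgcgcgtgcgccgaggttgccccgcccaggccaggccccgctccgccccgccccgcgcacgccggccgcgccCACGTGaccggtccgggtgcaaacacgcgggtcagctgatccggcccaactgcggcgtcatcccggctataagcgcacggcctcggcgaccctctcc

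The ATG12 window lies at chr5:115841516-115841815 on the minus strand, MCOLN1 at chr19:7522374-7522673 on the plus strand, LAMP1 at chr13:113296989-113297288 on the plus strand and CTSD at chr11:1763878-1764177 on the minus strand. LAMP1 held 6 copies of CACGTG, beginning 192, 176, 159, 142, 28 and 1 bases before the start. MCOLN1 held 2 copies, 41 and 14 bases before the start, and CTSD held 1 copy, 47 bases before it. The ATG12 window held 0 copies. Promoters were matched for 31 of the 36 genes. ATG4D, CTSB, LAMP2, RB1CC1 and UVRAG had none and were not searched. CACGTG stood in 5 of the 31 (ATG3, ATG14, CTSD, LAMP1 and MCOLN1), against 7.43% of 27305 promoters. GTCACGTG, which contains CACGTG and was searched on both strands, stood in the same 5, against 2.53% of all promoters. A glucocorticoid response element (GNACA and TGTNC spaced by any 3 bases) stood in 0 of the 31 windows, against 0.388% of all promoters. Of the 5 genes with CACGTG, none had a limma adjusted p below 0.05 in any comparison below. For prednisolone, 0.0% of all clusters were called with BTG1 shRNA. With control shRNA 0.928% were called higher and 105 of the 17881 lower. Between the shRNAs 10.0% were higher and 7.51% lower under prednisolone, and 8.46% and 6.21% under vehicle. With 5 genes, 0 called says little about the motif.

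In control cells, prednisolone was accompanied by higher levels of most of these genes, and ATG12 and CTSB passed the test. Of the 36 genes, 31 had a log2 difference (prednisolone minus vehicle) above 0, while 33.7% of all clusters did. The median difference was 0.37 over the 36 genes and -0.16 over all clusters. At a limma adjusted p below 0.05, 2 genes were higher and 0 lower, while 0.928% of all clusters were called higher and 105 of the 17881 lower. More than 2-fold higher were 4 genes (ATG12, CTSB, NBR1 and ATG10), while 3.86% of all clusters were. For 18 genes both prednisolone arrays lay above both vehicle arrays, as they did for 15.3% of all clusters. For TFEB and MCOLN1 both lay below, a direction for which the share of all clusters was not counted. The count above 0 was 32 of 36 after quantile normalization and 33 of 36 with each array centred on its median. Of all clusters 41.6% and 45.3% were above 0 there, with medians of -0.05 and -0.04. With clusters whose mean lay below the 25th percentile left out, 31 of 35 genes and 41.3% of clusters were above 0. Without the first control vehicle array 27 of 36 genes and 44.3% of all clusters were, with medians of 0.26 and -0.02.

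**Figure D1:**
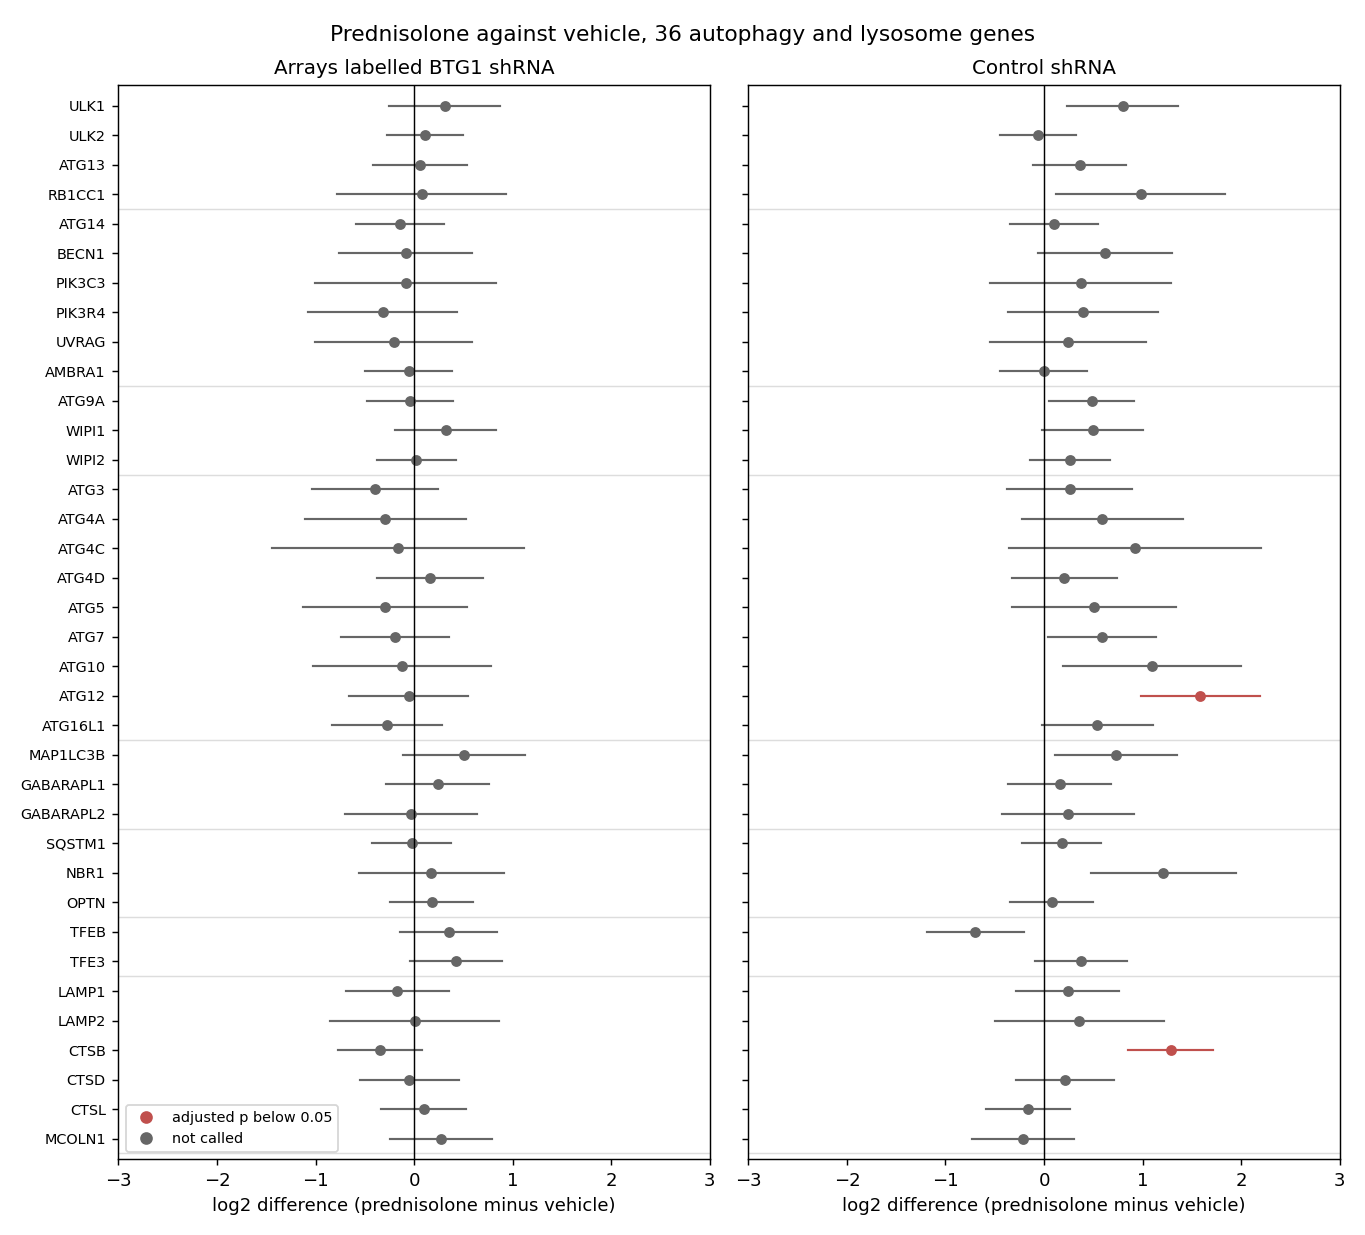
Log2 difference (prednisolone minus vehicle) of each of the 36 genes on the arrays labelled BTG1 shRNA (left) and with control shRNA (right). Points are differences of group means (2 arrays each), bars are 95% confidence intervals of the limma fit, thin lines separate roles, and red marks an adjusted p below 0.05. In control cells 31 points lie above 0, with ATG12 at 1.59 and CTSB at 1.28 in red, while all points with BTG1 shRNA lie between -0.40 and 0.51.

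Among the 4 genes of the initiation complex, ULK1, RB1CC1 and ATG13 had differences above 0 and none passed the test. ULK1, the kinase that starts autophagy, had log2 levels of 9.10 and 8.70 with prednisolone, against 8.34 and 7.87 with vehicle. Both prednisolone arrays lay above both vehicle arrays. The log2 difference was 0.80 (SE 0.24, limma adjusted p 0.202). RB1CC1, the scaffold of the complex (also called FIP200), had 8.02 and 8.36 with prednisolone, against 6.66 and 7.76 with vehicle. The groups did not overlap, but the vehicle arrays lay over 1 log2 unit apart, and the difference was 0.98 (SE 0.37, limma adjusted p 0.299). ULK2, a relative of ULK1, had nearly equal levels, 4.32 and 4.21 with prednisolone, against 4.32 and 4.33 with vehicle. Its difference of -0.06 turned to 0.15 after quantile normalization and 0.07 with centring.

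The 6 genes of the nucleation complex had a median difference of 0.31, with 5 above 0. ATG14, which directs the complex to autophagy, was read by a cluster annotated FBXO34 and ATG14, with a difference of 0.10, and a dimmer cluster annotated ATG14 alone differed by 0.68. BECN1, the core subunit, had log2 levels of 7.18 and 7.60 with prednisolone, against 6.45 and 7.09 with vehicle. PIK3C3, the lipid kinase itself, had 7.60 and 7.88 with prednisolone, against 6.84 and 7.90 with vehicle. The vehicle arrays again spread widely, and PIK3C3 groups overlapped. This group depended on the first control vehicle array: without it the median was -0.01 with 3 of 6 above 0, against 0.69 with 6 of 6 above 0 without the second. AMBRA1, which binds BECN1, had a difference of -0.0019, which turned to 0.12 with centring.

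ATG9A, WIPI1 and WIPI2 supply membrane or read PI3P, and all 3 had arrays higher with prednisolone than with vehicle. ATG9A, a membrane protein carried in vesicles to the growing membrane, had 8.41 and 8.32 with prednisolone, against 8.03 and 7.73 with vehicle, a difference of 0.48 (SE 0.19, limma adjusted p 0.31). WIPI2, which recruits the conjugation machinery to PI3P, had 7.44 and 7.59 with prednisolone, against 7.16 and 7.35 with vehicle. The WIPI2 difference was 0.27 (limma adjusted p 0.474). The groups of each gene did not overlap.

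All 9 measured conjugation genes (ATG3, ATG4A, ATG4C, ATG4D, ATG5, ATG7, ATG10, ATG12 and ATG16L1) had a difference above 0, with a median of 0.59. The 9 of 9 also held after quantile normalization and with centring, and became 8 of 9 without control prednisolone array 1. With a control array left out the median was 0.36 to 0.84. ATG12, the ubiquitin-like protein joined to ATG5, had log2 levels of 7.36 and 7.81 with prednisolone, against 5.84 and 6.16 with vehicle. The prednisolone arrays lay more than 1 log2 unit above the vehicle arrays. ATG12 rose by 1.59 (SE 0.26, 95% interval 0.98 to 2.19, limma adjusted p 0.0331). The call was lost when any array but the second control vehicle array was left out (adjusted p up to 0.301) and with centring (0.0609) or array weights (0.156). A lower cluster annotated SLC39A11 and ATG12 differed by 0.17.

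ATG10, the enzyme that joins ATG12 to ATG5, had 6.21 and 7.15 with prednisolone, against 5.21 and 5.97 with vehicle. The groups did not overlap, but both spread by nearly 1 log2 unit, and the difference was 1.09 (SE 0.39, limma adjusted p 0.274). ATG10 and NBR1 are given in full because their changes exceeded 2-fold, a choice made after their values were seen. ATG7, the activating enzyme of both conjugation reactions, had 6.31 and 6.69 with prednisolone, against 5.67 and 6.16 with vehicle. The difference was 0.59 (SE 0.24, limma adjusted p 0.325), and the groups did not overlap. A second cluster, annotated VGLL4 and ATG7, differed by -0.50, in the other direction. ATG16L1, which carries the ATG12 and ATG5 pair to the membrane, had 5.61 and 6.21 with prednisolone, against 5.20 and 5.54 with vehicle, and its cluster also covers SCARNA5 and SCARNA6. The groups did not overlap, and the difference was 0.54 (SE 0.24, limma adjusted p 0.369). The protease ATG4A, which processes ATG8 proteins, had 5.25 and 5.35 with prednisolone, against 4.53 and 4.89 with vehicle. The groups did not overlap, and the difference was 0.59 (limma adjusted p 0.466).

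Of the ATG8 proteins, MAP1LC3B had the largest difference. MAP1LC3B, the usual marker of autophagosomes, had log2 levels of 10.38 and 10.15 with prednisolone, against 9.32 and 9.76 with vehicle. Both prednisolone arrays lay above both vehicle arrays, and the difference was 0.73 (SE 0.27, limma adjusted p 0.289). GABARAPL1, a relative of MAP1LC3B with a cluster shared with GABARAPL3, had 4.40 and 4.46 with prednisolone, against 4.52 and 4.02 with vehicle. Those groups overlapped, and the difference was 0.16 (SE 0.22, limma adjusted p 0.657). GABARAPL2 differed by 0.24.

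The 3 cargo receptors differed in size of change. NBR1, which binds ubiquitinated cargo, had 7.50 and 7.16 with prednisolone, against 5.89 and 6.35 with vehicle. The prednisolone arrays lay clearly above the vehicle arrays, and the difference was 1.21 (SE 0.32, limma adjusted p 0.141). SQSTM1, the receptor known as p62, had 8.32 and 8.33 with prednisolone, against 8.25 and 8.04 with vehicle. Its difference was 0.18 (SE 0.17, limma adjusted p 0.541), and its cluster also covers MRNIP. OPTN, a receptor for damaged mitochondria and bacteria, differed by 0.08.

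TFEB and TFE3, related transcription factors, had differences of opposite sign. TFEB had 5.83 and 5.46 with prednisolone, against 6.50 and 6.18 with vehicle. Both prednisolone arrays lay below both vehicle arrays, and the difference was -0.70 (SE 0.21, limma adjusted p 0.201). TFE3 had 6.66 and 6.27 with prednisolone, against 6.23 and 5.95 with vehicle. Its groups did not overlap, and its difference was 0.38 (limma adjusted p 0.439).

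Of the 6 lysosomal genes, CTSB passed the test. CTSB, the cysteine protease cathepsin B, had log2 levels of 8.26 and 8.19 with prednisolone, against 6.87 and 7.01 with vehicle. The arrays of each group lay close together, and the groups lay more than 1 log2 unit apart. CTSB rose by 1.28 (SE 0.18, 2.43-fold, limma adjusted p 0.0204). The call was lost when any array but the second control vehicle array was left out (adjusted p up to 0.182) and with array weights (0.0937). Myeloid cells are rich in CTSB, and a part of such cells in the CTSB difference was not tested. The 9 measured myeloid markers had mean log2 levels of 3.72 to 3.98 with prednisolone, against 3.99 to 4.44 with vehicle. Of the 9 markers, 0 lay above the array median on both arrays of either group.

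The other lysosomal genes showed smaller differences. LAMP1, an abundant lysosomal membrane protein, had 8.47 and 8.66 with prednisolone, against 8.27 and 8.38 with vehicle. The groups did not overlap, and the difference was 0.24 (SE 0.22, limma adjusted p 0.535). CTSD, the aspartic protease cathepsin D, whose cluster also covers IFITM10, had 9.18 and 8.71 with prednisolone, against 8.70 and 8.76 with vehicle. These groups overlapped, and the difference was 0.21 (SE 0.21, limma adjusted p 0.555). MCOLN1, the calcium channel of the lysosome, had 7.07 and 6.89 with prednisolone, against 7.29 and 7.10 with vehicle, a difference of -0.21 (limma adjusted p 0.568). LAMP2 differed by 0.36 and CTSL by -0.16. Several genes were dim: CTSL, ULK2, OPTN, GABARAPL1 and WIPI1 lay within percentiles 19.4 to 51.2 of all clusters on every array. The files used here give no detection values, so whether such levels exceed background is unknown.

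On the arrays labelled BTG1 shRNA, the prednisolone differences of these genes were small, and none passed the test. Of the 36 genes, 16 had a difference above 0, while 58.1% of all clusters did, and the median was -0.04 over the genes and 0.03 over all clusters. Single arrays decided which sign was more frequent. Leaving out BTG1 shRNA vehicle array 2 gave 24 of 36 with a median of 0.11, and leaving out vehicle array 1 gave 15 of 36 with a median of -0.14. Leaving out BTG1 shRNA prednisolone array 1 gave 22 of 36 with a median of 0.03. The differences ranged from -0.40 to 0.51. At a limma adjusted p below 0.05, 0 genes were called, as for 0.0% of all clusters. An unadjusted p below 0.05 was found for 0 of the 36, and the share of all clusters at that level was not counted. The median half-width of the unadjusted 95% intervals was 0.54, so smaller differences were not detectable for a typical gene. Larger differences could also miss the adjusted threshold, as ULK1 did in control cells at 0.80 (limma adjusted p 0.202). NR3C1 was lower on these arrays than on control arrays, as given above, and its part in the result was not tested.

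By role, all 4 initiation genes were above 0 with a median of 0.09, and 0 of 6 nucleation genes were, with a median of -0.11. Of the 9 conjugation genes 1 was above 0, with a median of -0.19. These counts were the same after quantile normalization and with centring, but not with an array left out. Leaving out BTG1 shRNA vehicle array 2 gave 5 of 6 nucleation genes above 0, vehicle array 1 gave 2 of 4 initiation genes, and prednisolone array 1 gave 5 of 9 conjugation genes. ATG12 had log2 levels of 6.22 and 5.84 with BTG1 shRNA and prednisolone, against 6.30 and 5.87 with BTG1 shRNA and vehicle. The arrays overlapped, and the difference was -0.05 (95% interval -0.66 to 0.55, limma adjusted p 1.0). CTSB had 6.99 and 6.90 with prednisolone, against 7.13 and 7.44 with vehicle. Both prednisolone arrays lay below both vehicle arrays, and the difference was -0.34 (95% interval -0.77 to 0.08, limma adjusted p 1.0).

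MAP1LC3B had the largest positive difference with BTG1 shRNA, at 9.83 and 9.84 with prednisolone, against 8.996 and 9.66 with vehicle. The difference was 0.51 (SE 0.27, limma adjusted p 1.0). ULK1 had 8.19 and 7.91 with prednisolone, against 7.85 and 7.63 with vehicle, a difference of 0.31 (SE 0.24, limma adjusted p 1.0). For both genes the prednisolone arrays lay above the vehicle arrays, as they did in control cells. TFEB had 5.71 and 5.48 with prednisolone, against 5.28 and 5.22 with vehicle, a difference of 0.35 (SE 0.21, limma adjusted p 1.0). TFE3 differed by 0.42. RB1CC1 differed by 0.08, ULK2 by 0.11, ATG9A by -0.04, WIPI2 by 0.02, ATG4A by -0.29, ATG7 by -0.19 and ATG16L1 by -0.27 (limma adjusted p 1.0 each). Of the other genes, SQSTM1 differed by -0.03, LAMP1 by -0.17, CTSD by -0.05 and GABARAPL1 by 0.24 (limma adjusted p 1.0 each). The sign of ATG9A, SQSTM1 and CTSD turned after quantile normalization, to 0.03, 0.07 and 0.06, and that of WIPI2 with centring, to -0.02.

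The prednisolone differences were then compared directly between the shRNAs, as BTG1 shRNA minus control shRNA. Of the 36 genes, 7 had a value above 0, while 65.2% of all clusters did, and the median was -0.38 over the genes and 0.20 over all clusters. With each array centred on its median, 3 of 36 genes and 52.6% of all clusters were above 0, with medians of -0.56 and 0.03. With an array left out, the median over the genes was -0.50 (without BTG1 shRNA vehicle array 1) to -0.22 (without vehicle array 2). No gene passed the limma test, while 0.134% of all clusters did. An unadjusted p below 0.05 was found for 5 of the 36 (CTSB, ATG12, TFEB, ATG16L1 and ATG7). The share of all clusters at that unadjusted level was not counted, so whether 5 is many is unknown. CTSB came closest, at -1.63 (SE 0.26, limma adjusted p 0.0864), followed by ATG12 at -1.64 (SE 0.37, adjusted p 0.228). TFEB ran the other way, at 1.05 (SE 0.30, limma adjusted p 0.38). The 9 conjugation genes were all below 0, with a median of -0.82, but 8 of 9 after quantile normalization or without control vehicle array 2, control prednisolone array 1, BTG1 shRNA vehicle array 2 or BTG1 shRNA prednisolone array 2. With the array number as a block, CTSB passed (adjusted p 0.0464). The prednisolone differences had the same sign with both shRNAs for 13 of the 36 genes, and the share of all clusters was not counted.

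**Figure D2:**
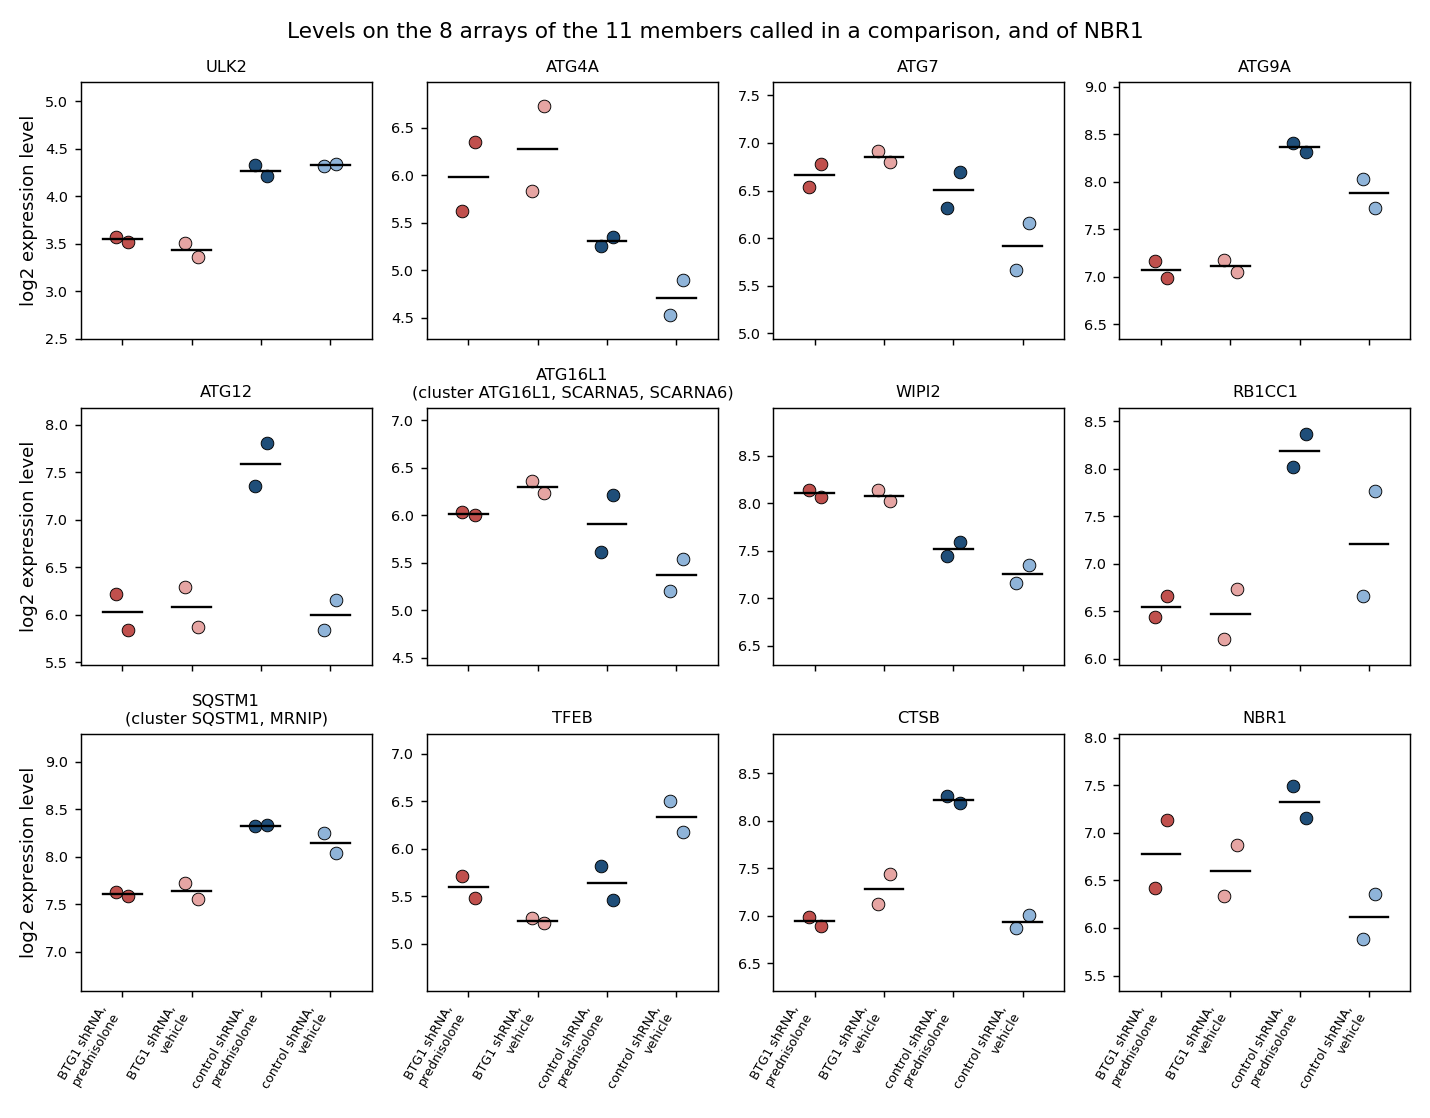
Log2 expression level on each of the 8 arrays for the 11 genes with an adjusted p below 0.05 in any comparison, and for NBR1. Points are single arrays, black lines are group means (2 arrays), each panel has its own axis, and the groups run BTG1 shRNA with prednisolone, BTG1 shRNA with vehicle, control shRNA with prednisolone, control shRNA with vehicle. ATG12 and CTSB stand high on the 2 control prednisolone arrays and low on the other 6.

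Under prednisolone, the genes called different between the shRNAs were lower in cells labelled BTG1 shRNA, with WIPI2 called higher under some other settings. At a limma adjusted p below 0.05, 6 of the 36 genes were lower (CTSB, ATG9A, ATG12, RB1CC1, ULK2 and SQSTM1), while 7.51% of all clusters were, and 0 were higher, while 10.0% of all clusters were. After quantile normalization 5 were lower and 1, WIPI2, was higher, and WIPI2 was also called with the replicate block, with array weights and without either control vehicle array (adjusted p 0.0288 to 0.0366). A difference above 0 was found for 17 of 36, while 57.9% of all clusters had one, and the median was -0.03 over the genes and 0.04 over all clusters. With centring 11 of 36 genes and 37.2% of all clusters were above 0, with medians of -0.16 and -0.09. Lineage markers moved with every value in this comparison, as given above, and their part in it was not tested.

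ULK2 had log2 levels of 3.57 and 3.52 with BTG1 shRNA, against 4.32 and 4.21 with control shRNA under prednisolone. The groups lay apart, and ULK2 fell by 0.72 (SE 0.16, limma adjusted p 0.0208). RB1CC1 had 6.44 and 6.66 with BTG1 shRNA, against 8.02 and 8.36 with control shRNA. RB1CC1 fell by 1.64 (SE 0.37, 3.12-fold, limma adjusted p 0.0189), with groups more than 1 log2 unit apart. ULK1 had 8.19 and 7.91 with BTG1 shRNA, against 9.10 and 8.70 with control shRNA. Its arrays did not overlap, and its difference of -0.85 (SE 0.24) just missed the threshold, at a limma adjusted p of 0.0507.

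ATG9A had 7.16 and 6.98 with BTG1 shRNA, against 8.41 and 8.32 with control shRNA. The groups lay more than 1 log2 unit apart, and ATG9A fell by 1.29 (SE 0.19, 2.44-fold, limma adjusted p 0.00251). A second cluster, annotated ABCB6 and ATG9A, differed by 0.74 in the other direction (limma adjusted p 0.0442). Whether that cluster reads ATG9A or ABCB6 is unknown. ATG12 had 6.22 and 5.84 with BTG1 shRNA, against 7.36 and 7.81 with control shRNA, and fell by 1.56 (SE 0.26, 2.94-fold, limma adjusted p 0.00502). The cluster annotated SLC39A11 and ATG12 differed by 0.79 in the other direction (limma adjusted p 0.111). WIPI2 had 8.14 and 8.06 with BTG1 shRNA, against 7.44 and 7.59 with control shRNA. The WIPI2 arrays did not overlap, and the difference was 0.58 (SE 0.17, limma adjusted p 0.0576).

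SQSTM1 had 7.63 and 7.59 with BTG1 shRNA, against 8.32 and 8.33 with control shRNA. The 2 arrays of each group nearly coincided, and SQSTM1 fell by 0.71 (SE 0.17, limma adjusted p 0.0263), while a second cluster, annotated MRNIP and SQSTM1, differed by -0.13. CTSB had 6.99 and 6.90 with BTG1 shRNA, against 8.26 and 8.19 with control shRNA. CTSB fell by 1.28 (SE 0.18, 2.43-fold, limma adjusted p 0.00243). The calls of ATG9A, ATG12 and CTSB held whichever of the 8 arrays was left out, at adjusted p of at most 0.0257, 0.0449 and 0.0241. RB1CC1 lost its call without the second control prednisolone array (0.121) or either BTG1 shRNA prednisolone array (0.105 and 0.0663), and ULK2 and SQSTM1 without any of 6 arrays each (up to 0.12 and 0.146). RB1CC1 also lost it with centring (0.052), and SQSTM1 with quantile normalization (0.0691) and the filter on low values (0.0557). Leaving out either control vehicle array raised the number of genes called, and leaving out any other array lowered it. The number of all clusters called moved the same way.

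The remaining genes did not pass under prednisolone. ATG4A differed by 0.68 (SE 0.35, limma adjusted p 0.279), ATG7 by 0.16 (SE 0.24, adjusted p 0.898) and ATG16L1 by 0.11 (SE 0.24, adjusted p 0.979). MAP1LC3B differed by -0.43 (SE 0.27, limma adjusted p 0.398), GABARAPL1 by 0.26 (SE 0.22, adjusted p 0.616), LAMP1 by -0.17 (SE 0.22, adjusted p 0.861) and CTSD by 0.08 (SE 0.21, adjusted p 0.991). TFEB had 5.71 and 5.48 with BTG1 shRNA, against 5.83 and 5.46 with control shRNA. These arrays overlapped, and the difference was -0.04 (SE 0.21, limma adjusted p 1.0).

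**Figure D3:**
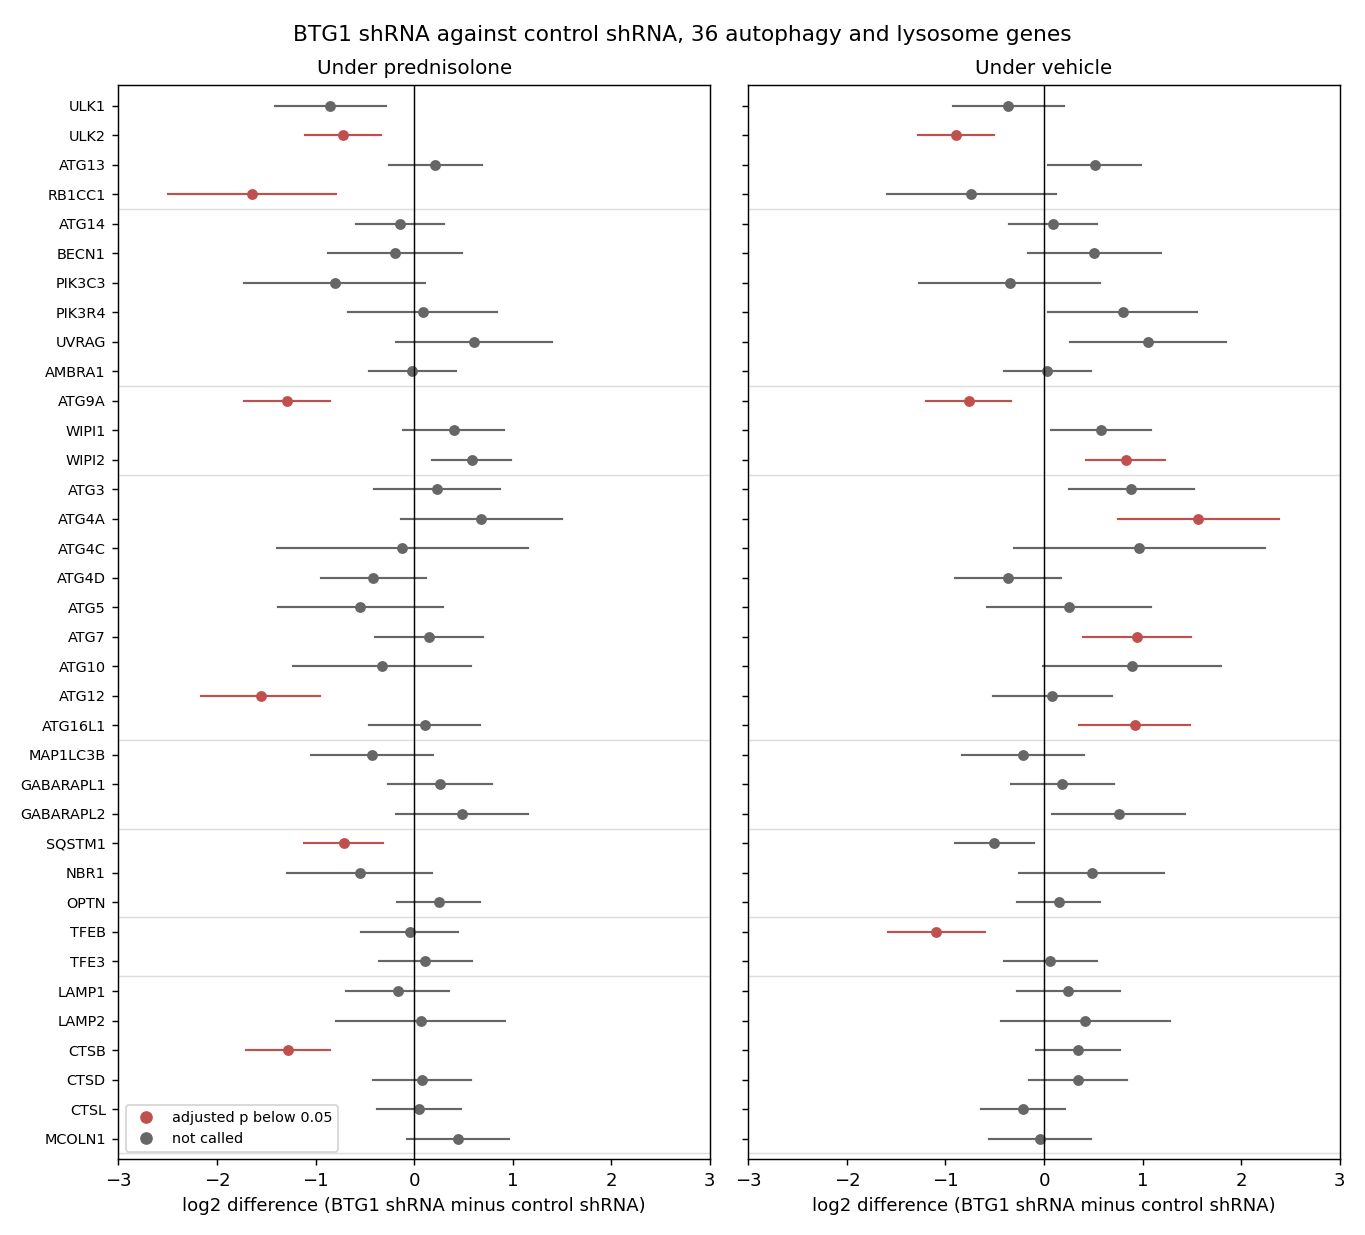
Log2 difference (BTG1 shRNA minus control shRNA) of each of the 36 genes under prednisolone (left) and under vehicle (right). Points are differences of group means (2 arrays each), bars are 95% confidence intervals of the limma fit, thin lines separate roles, and red marks an adjusted p below 0.05. Under prednisolone 6 genes are red and all lie below 0, while under vehicle 4 red genes lie above 0 and 3 below.

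Under vehicle, the shRNAs differed in both directions. At a limma adjusted p below 0.05, 4 of the 36 genes were higher in cells labelled BTG1 shRNA (ATG4A, ATG7, ATG16L1 and WIPI2), while 8.46% of all clusters were, and 3 were lower (ULK2, ATG9A and TFEB), while 6.21% of all clusters were. The split was 2 higher and 3 lower after quantile normalization, and 1 higher and 3 lower with centring. A difference above 0 was found for 25 of 36, while 39.3% of all clusters had one, and the median was 0.25 over the genes and -0.15 over all clusters. Leaving out control vehicle array 2 raised the number of genes called, and leaving out any other array lowered it. The number of all clusters called moved the same way. With an array left out, the median over the genes was 0.20 to 0.37. The control vehicle arrays also enter the prednisolone comparison in control cells.

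ULK2 had log2 levels of 3.50 and 3.36 with BTG1 shRNA, against 4.32 and 4.33 with control shRNA under vehicle. ULK2 fell by 0.89 (SE 0.16, limma adjusted p 0.00967), and ULK2 and ATG9A were the 2 genes called under both treatments. ATG9A had 7.17 and 7.05 with BTG1 shRNA, against 8.03 and 7.73 with control shRNA. ATG9A fell by 0.76 (SE 0.19, 1.70-fold, limma adjusted p 0.0312), a call that held in 1 of 8 fits with an array left out, while the cluster annotated ABCB6 and ATG9A differed by 0.32. WIPI2 had 8.13 and 8.02 with BTG1 shRNA, against 7.16 and 7.35 with control shRNA. WIPI2 rose by 0.83 (SE 0.17, 1.77-fold, limma adjusted p 0.0168), and the groups of all 3 genes lay apart.

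Of the 9 conjugation genes 8 had a difference above 0, with a median of 0.89, and 3 were called higher. ATG4A had 5.83 and 6.72 with BTG1 shRNA, against 4.53 and 4.89 with control shRNA. The groups did not overlap although the BTG1 shRNA arrays spread by nearly 1 log2 unit, and ATG4A rose by 1.57 (SE 0.35, 2.96-fold, limma adjusted p 0.0218). Its call was lost with centring (0.0566), with array weights (0.099), without control vehicle array 1 (0.094) and without BTG1 shRNA vehicle array 2 (0.143), where the difference was 1.12, against 2.01 without vehicle array 1. ATG7 had 6.91 and 6.80 with BTG1 shRNA, against 5.67 and 6.16 with control shRNA, and rose by 0.94 (SE 0.24, limma adjusted p 0.0347). The other ATG7 cluster, shared with VGLL4, differed by -0.0018, and the ATG7 call held in 3 of 8 fits with an array left out. ATG16L1 had 6.36 and 6.23 with BTG1 shRNA, against 5.20 and 5.54 with control shRNA, and rose by 0.92 (SE 0.24, limma adjusted p 0.0415), a call that also held in 3 of 8. ATG12 differed by 0.09 (SE 0.26, limma adjusted p 0.821), with 6.30 and 5.87 with BTG1 shRNA, against 5.84 and 6.16 with control shRNA, while the cluster annotated SLC39A11 and ATG12 differed by 1.03 (limma adjusted p 0.0517).

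TFEB had 5.28 and 5.22 with BTG1 shRNA, against 6.50 and 6.18 with control shRNA under vehicle. Both BTG1 shRNA arrays lay nearly 1 log2 unit below both control arrays, and TFEB fell by 1.09 (SE 0.21, 2.13-fold, limma adjusted p 0.0119). Its call was lost without either BTG1 shRNA vehicle array (adjusted p 0.0713 and 0.096). CTSB had 7.13 and 7.44 with BTG1 shRNA, against 6.87 and 7.01 with control shRNA, a difference of 0.35 (SE 0.18, limma adjusted p 0.251). ULK1 differed by -0.36 (SE 0.24, limma adjusted p 0.335), SQSTM1 by -0.51 (SE 0.17, adjusted p 0.101) and RB1CC1 by -0.74 (SE 0.37, adjusted p 0.23). MAP1LC3B differed by -0.21 (SE 0.27, limma adjusted p 0.578), GABARAPL1 by 0.18 (SE 0.22, adjusted p 0.563), LAMP1 by 0.25 (SE 0.22, adjusted p 0.447) and CTSD by 0.34 (SE 0.21, adjusted p 0.31).

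Genes of the same pathways outside the 36 gave few calls for prednisolone, as did all clusters. In control cells 0.928% of all clusters were called higher and 105 of the 17881 lower. Of 28 measured genes that control autophagy through mTORC1 and AMPK, 1 was called in control cells. That gene was DDIT4 (also REDD1), a stress-induced inhibitor of mTORC1. DDIT4 had log2 levels of 7.03 and 7.75 with prednisolone, against 4.88 and 4.98 with vehicle, and rose by 2.46 (SE 0.29, limma adjusted p 0.00921). On the arrays labelled BTG1 shRNA it had 5.73 and 5.18 with prednisolone, against 4.44 and 4.59 with vehicle. Those arrays also did not overlap, but no gene was called there. Of 22 other autophagy genes, 16 subunits and partners of the lysosomal proton pump and 39 other lysosomal genes, 0 were called for prednisolone with either shRNA. In control cells 13 of 22, 10 of 16 and 19 of 39 of them had a difference above 0, with medians of 0.14, 0.19 and -0.13. Of all clusters 33.7% did, with a median of -0.16. For the difference of the prednisolone effects 0 genes of these lists were called, while 0.134% of all clusters were.

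The largest differences in these lists lay between the shRNAs. VAMP8, which fuses autophagosomes with lysosomes, had log2 levels of 4.67 and 4.26 with BTG1 shRNA, against 9.76 and 10.22 with control shRNA under prednisolone, and fell by 5.53 (SE 0.24, limma adjusted p 1.1e-05). BNIP3 and BNIP3L, receptors for mitochondria, rose by 3.25 and 1.52 (limma adjusted p 0.00312 and 0.00157). Of the 22 other autophagy genes 3 were higher and 2 lower under prednisolone, and as many under vehicle, while 10.0% of all clusters were higher and 7.51% lower under prednisolone, against 8.46% and 6.21% under vehicle. Of the 39 other lysosomal genes 7 were higher and 9 lower under prednisolone, against 5 and 7 under vehicle. LAPTM4B, a lysosomal membrane protein, had 8.46 and 8.50 with BTG1 shRNA, against 3.57 and 3.31 with control shRNA, and rose by 5.04 (limma adjusted p 1.1e-05), while the cysteine protease CTSS fell by 3.61 (limma adjusted p 0.000289). The proton pump list gave 1 higher (ATP6V0B, 0.87) and 1 lower (ATP6V1C1, -1.65) under prednisolone, and 3 higher and 0 lower under vehicle. The mTORC1 and AMPK list gave 4 higher and 4 lower under prednisolone, with FOXO1, a transcription factor that activates autophagy genes, at -1.25 (limma adjusted p 0.00213) and DDIT4 at -1.93 (limma adjusted p 0.00286). Under vehicle it gave 3 higher and 1 lower, FOXO1 at -1.13.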

How the data were processed

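The deposited table held log2 expression values per transcript cluster of Human Exon arrays, summarised over core meta-probe sets on hg18 per the labels. Per the submitters' processing notes, RMA and Partek were used, with versions not given in the sources used here. Most deposited values lacked their decimal point, so the table was taken as a score, and the point was restored: it was set behind digit 1, or behind digit 2 in values that start with 1. Of 143048 values 153 had kept a point. Correlations between arrays were 0.446 to 0.587 as deposited and 0.872 to 0.995 restored. The tests assumed a plain log2 table. As deposited the table was not one, so they were run on the restored log2 values, with no other normalization and no filter.

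All 8 arrays were fitted as 4 group means with limma 3.58.1 in R 4.3.3 (lmFit, eBayes, 4 residual and 3.51 prior degrees of freedom), in 5 contrasts. Benjamini-Hochberg adjustment ran over all 17881 clusters, with a threshold of 0.05, and the procedure was tested on simulated data. Symbols came from the platform annotation (14432 clusters with 1 symbol, 2408 with several, 1041 with none). The named genes were members called in any contrast and always ULK1, MAP1LC3B, GABARAPL1, SQSTM1, TFEB, LAMP1 and CTSD. Of other lists, up to 4 called genes each could be named. Members and lists were chosen with earlier results of these data known. Alternatives were quantile normalization, centring, a filter at the 25th percentile, clusters with 1 symbol only, a replicate block, array weights and leaving out each array. The number of arrays limits the precision, and 0 columns went unused.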

Additional observations from a re-analysis of the deposited data

Results flagged for a closer look

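For ATG7, ATG16L1, TFEB and CTSB, the prednisolone arrays lay apart from the vehicle arrays in opposite directions with the 2 shRNAs, which held for 4 of the 36 genes and for 7.03% of all clusters. The difference of the prednisolone effects (BTG1 shRNA minus control shRNA) was -0.79 for ATG7, the activating enzyme of the conjugation reactions (limma adjusted p 0.536). It was -0.82 for ATG16L1, their membrane anchor (limma adjusted p 0.536). It was 1.05 for the transcription factor TFEB (limma adjusted p 0.38) and -1.63 for the protease CTSB (limma adjusted p 0.0864). None of these differences passed the threshold of 0.05. With 2 arrays in a group, no group was large enough to look for a single outlying array.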

How the results depend on the processing

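Of the genes given in full, most values kept their direction and side of the threshold under the other settings, but most were uncalled from the start. Array weights lost both prednisolone calls in control cells (ATG12 and CTSB). Quantile normalization, centring and array weights each lost the calls of ATG7 and ATG16L1 under vehicle. The calls of ATG9A, ATG12 and CTSB between the shRNAs under prednisolone held in every setting. The control prednisolone arrays also enter the prednisolone comparison in control cells and the difference of the effects. The values of ATG12 and CTSB in these comparisons are therefore not separate results. In control cells 2 genes were called for prednisolone, against 1 with centring, 3 with the replicate block (ULK1 added, adjusted p 0.0361), 0 with array weights and 0 to 3 with an array left out. Under vehicle 7 differed between the shRNAs, against 4 with centring, 13 with the replicate block and 3 with array weights. Over all clusters 1512 were higher and 1111 lower, against 1383 and 1144, 2428 and 2125, and 1040 and 852, in the same order. Under prednisolone 6 differed, against 9 with the replicate block and 8 with array weights. Over all clusters 1791 were higher and 1343 lower, against 2408 and 1913, and 2196 and 1694. Both counts of genes also changed with an array left out. For the difference of the effects the count was 0, and 1 with the replicate block (CTSB, adjusted p 0.0464). Arrays of the same number had correlations of deviations from their group means of 0.0072 to 0.5925 between groups. Since 1 of the 6 was near 0 and no label ties the arrays, the numbers were not taken as pairing, although the other 5 lay at 0.26 or above. In every group array 1 had the higher median over all clusters (5.24 to 5.45, against 5.14 to 5.26 on array 2). Array 1 also had the smaller interquartile range in every group (2.95 to 3.57, against 3.55 to 3.80). The main fit did not model this difference between the array numbers. The block moved the clusters called for prednisolone in control cells to 418 higher and 337 lower, against 166 and 105. Array weights gave 76 and 17. The filter gave 9 and 43 for the difference of the effects and the block 33 and 63, against 5 and 19. The cause of these changes was not tested, except that leaving out an array leaves fewer arrays.

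Some small differences turned sign. For prednisolone with BTG1 shRNA, quantile normalization gave ATG9A 0.028, SQSTM1 0.069 and CTSD 0.06, and centring WIPI2 -0.023. In control cells ULK2 was 0.15 after quantile normalization and 0.068 with centring. Between the shRNAs under prednisolone, centring gave ATG16L1 -0.022 and CTSD -0.045. For the difference of the effects, quantile normalization gave ULK2 -0.13, GABARAPL1 -0.25 and SQSTM1 0.027, and centring ULK2 -0.0034 and GABARAPL1 -0.093. With an array left out, values for prednisolone with BTG1 shRNA spanned -0.74 to 0.16 for ATG4A, -0.13 to 0.050 for ATG9A, -0.27 to 0.16 for ATG12, -0.034 to 0.080 for WIPI2, -0.19 to 0.34 for RB1CC1, -0.11 to 0.059 for SQSTM1, -0.46 to 0.11 for LAMP1 and -0.18 to 0.081 for CTSD. In control cells they spanned -0.093 to 0.41 for GABARAPL1 and -0.020 to 0.45 for CTSD. Between the shRNAs under vehicle they spanned -0.13 to 0.30 for ATG12, -0.54 to 0.12 for MAP1LC3B, -0.067 to 0.44 for GABARAPL1 and -0.037 to 0.53 for LAMP1. Under prednisolone they spanned -0.036 to 0.35 for ATG7, -0.20 to 0.41 for ATG16L1, -0.23 to 0.14 for TFEB and -0.15 to 0.32 for CTSD. For the difference of the effects they spanned -0.55 to 0.11 for MAP1LC3B and -0.17 to 0.33 for GABARAPL1. None of these signs was called. With 2 arrays a group and no detection values, small changes and dim genes cannot be resolved.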
